A study of Mus musculus with 6 samples.

Results

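The genes described here encode the nuclear parts of respiratory chain complexes II to V and the Uqcc assembly factors of complex III. They were taken by symbol from the protein-coding genes of the GENCODE annotation of GRCm38, as Sdha to Sdhd and all names that begin with Uqcr, Uqcc, Cyc1, Cox4i, Cox5, Cox6, Cox7, Cox8 or Atp5, outside the mitochondrial chromosome. This gave 51 of the 49671 genes in each count table, namely 4 of complex II, 9 of complex III, 3 assembly factors of complex III, 18 of complex IV and 17 of complex V. Of these, 46 had enough reads to be tested. The name Atp5s also met the rule, although its protein is a coupling factor and not a subunit of the core enzyme.

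RNA was sequenced from Podoplanin-positive cells of pancreatic tumours that had grown for 4 weeks from FC1199 cells, a mouse pancreatic cancer line, placed in the pancreas of 8-week-old hosts. The cells were sorted into a GFP fraction, labelled as cancer-associated fibroblasts (CAFs) derived from stellate cells, and a Tomato fraction, labelled as CAFs of another origin, with 3 libraries of each. All hosts carried Rosa-mTmG and Fabp4-Cre on a C57BL/6J background and were 12 weeks old, so both fractions shared the genotype, the tumour line and the age. Rosa-mTmG cells make the red protein Tomato until Cre switches them to GFP for good, and Cre stood under the promoter of Fabp4, a gene also known to be used by adipocytes, some endothelial cells and some macrophages. The labels did not say whether the libraries of a fraction came from separate animals.

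Total counts were 35580848 to 40213293 per GFP library and 33378377 to 42154933 per Tomato library. The 8 fibroblast markers together held 64000 to 72200 CPM (read counts scaled to library size) in GFP libraries and 30000 to 44100 CPM in Tomato libraries. Col1a1 (means 34000 CPM in GFP, 13800 CPM in Tomato) and Col1a2 (20500 CPM in GFP, 10700 CPM in Tomato) carried this gap. Of the 8 markers 5 were higher in GFP, and Pdpn, the gate gene, and Dcn were not called (both -0.10). Before any gene is described, 1 property of the libraries has to be given, since these transcripts are short: the level of short transcripts against long ones differed between the fractions and among the libraries. With all genes tested divided by transcript length into 10 classes of nearly equal number, the median deviation of the shortest class from the mean of all libraries was -0.20, -0.06 and -0.16 (log2) in GFP replicates 1, 2 and 3, against 0.04, 0.10 and 0.26 in Tomato replicates 1, 2 and 3. In the longest class the deviations were 0.28, 0.06 and 0.14 in GFP libraries, against -0.04, -0.17 and -0.27 in Tomato libraries. GFP replicate 1 and Tomato replicate 3 therefore stood farthest apart, at opposite ends.

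**Figure D1:**
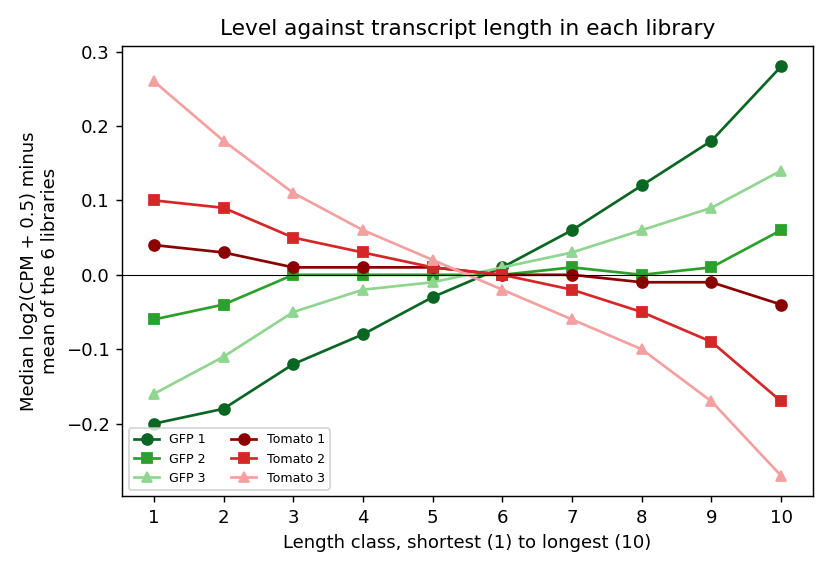
Median deviation of log2 level from the mean of the 6 libraries (y axis) in each of 10 classes of transcript length, shortest to longest (x axis), with 1 line per library. The lines cross: Tomato replicate 3 is highest among the shortest transcripts (0.26) and lowest among the longest (-0.27), and GFP replicate 1 is the reverse (-0.20 and 0.28).

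The respiratory chain passes electrons from nutrients to oxygen in the inner mitochondrial membrane and stores the energy as a proton gradient. Complex II, succinate dehydrogenase, feeds electrons from the tricarboxylic acid cycle into the ubiquinone pool, complex III hands them to cytochrome c, complex IV gives them to oxygen, and complex V uses the gradient to make ATP. Nuclear genes encode most subunits, and the mitochondrial genome encodes a few of complexes I, III, IV and V. Many of the nuclear promoters are known to be bound by NRF1, by the ETS factor GABP or by YY1.

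Because these factors are the known common inputs of the genes, their core letters were sought in the 250 bases before the RefSeq start (build GRCm38.p6), on both strands. A promoter was at hand for 39 of the 51 genes. The NRF1 letters GCGCATGC, of which a full palindromic site holds overlapping copies on both strands, were in 5 of the 39 promoters (12.8%), against 2.56% of 27025 genes. The GABP letters CCGGAAGT were in 3 promoters (7.69%, against 3.23% of all) and the YY1 letters AAGATGGCG in 1 (2.56%, against 0.71%). Together 9 promoters held at least 1 of the motifs (23.1%, against 6.22% of all), those of Sdhb, Uqcr11, Uqcrh, Cox6a1, Atp5g2, Atp5h, Atp5j, Atp5k and Atp5l. A match of letters is a description of the sequence and not a bound site. The following promoters are those of the gene with the smallest adjusted p in each complex among the genes that were lower and hold a motif, which stands in capitals. Sdhb, chr4:140961021-140961270, plus strand, has NRF1 letters on the opposite strand that begin 54 bases before the start. Uqcr11, chr10:80406822-80407071, minus strand, has GABP letters that begin 66 bases before it. Cox6a1, chr5:115348959-115349208, minus strand, has the NRF1 palindrome, which begins 162 bases before it. Atp5k, chr5:108434400-108434649, minus strand, has the NRF1 palindrome, which begins 50 bases before it. GENCODE M21, used here for names and lengths, puts these starts further upstream, inside the windows. By M21 the Sdhb letters and nearly all of the Atp5k palindrome lie after the gene start, within the gene. The motifs of Uqcr11 and Cox6a1 stay before the start.
Sdhb: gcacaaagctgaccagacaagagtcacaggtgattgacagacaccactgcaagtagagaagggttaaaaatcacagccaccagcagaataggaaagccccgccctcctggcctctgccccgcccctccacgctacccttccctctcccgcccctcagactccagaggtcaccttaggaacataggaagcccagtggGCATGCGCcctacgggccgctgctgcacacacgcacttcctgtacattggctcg
Uqcr11: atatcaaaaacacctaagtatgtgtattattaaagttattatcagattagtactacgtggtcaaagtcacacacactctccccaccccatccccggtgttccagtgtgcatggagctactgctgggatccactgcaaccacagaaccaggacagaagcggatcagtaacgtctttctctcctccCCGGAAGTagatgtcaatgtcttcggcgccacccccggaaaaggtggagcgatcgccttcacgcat
Cox6a1: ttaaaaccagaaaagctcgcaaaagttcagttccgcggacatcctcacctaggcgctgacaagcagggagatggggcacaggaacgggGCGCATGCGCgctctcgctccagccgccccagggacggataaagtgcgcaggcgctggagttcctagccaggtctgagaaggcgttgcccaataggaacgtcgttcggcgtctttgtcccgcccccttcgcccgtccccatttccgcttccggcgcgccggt
Atp5k: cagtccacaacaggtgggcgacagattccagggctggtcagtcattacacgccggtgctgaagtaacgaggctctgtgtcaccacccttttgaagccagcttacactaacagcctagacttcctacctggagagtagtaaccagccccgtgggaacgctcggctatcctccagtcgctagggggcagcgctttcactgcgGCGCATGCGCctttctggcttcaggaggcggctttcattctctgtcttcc

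Most of the genes had lower RNA levels in the GFP fraction. Of the 46 tested, 31 were lower and none was higher in GFP than in Tomato libraries (edgeR's quasi-likelihood test, Benjamini-Hochberg adjusted over 15608 genes, threshold 0.05). Without adjustment 36 were lower and 0 higher, and DESeq2 called 33 lower and 0 higher. Over all genes tested, 15.7% were lower and 13.1% were higher. The changes were small and close to each other: log2 fold changes (GFP over Tomato) ran from -0.73 to 0.25 with a median of -0.46, against 0.00 over all genes, and 44 of the 46 were negative. All 3 GFP libraries were below all 3 Tomato libraries for 36 of the 46, as for 25.2% of all genes tested. In bulk samples, fewer cells of a type that holds much of an RNA and less of it per cell cannot be told apart.

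The 6 libraries formed a gradient. The median deviation of the 46 genes from their mean was -0.33, -0.12 and -0.21 (log2) in GFP replicates 1, 2 and 3, against 0.05, 0.15 and 0.44 in Tomato replicates 1, 2 and 3. Tomato replicate 3 was the highest library for 43 of the 46 genes and GFP replicate 1 the lowest for 36, the same libraries that stood at the ends of the length trend. The number of calls changed when single libraries were left out, while the median log2 fold change stayed between -0.54 and -0.32. Without adjustment, 31 to 38 of the 46 genes were lower in the fits that left out 1 library. Without GFP replicate 1, 2 of these genes were called lower (8.61% of all genes), and without GFP replicate 3, 9 were (9.66%). Without Tomato replicate 2 there were 15 (9.56%), without GFP replicate 2 there were 17 (10.7%), without Tomato replicate 3 there were 23 (12.3%), and without Tomato replicate 1 there were 36 (17.4%). Uqcr10 and Cox7b were the 2 of the 31 genes that kept their call in all 6 of these fits. With the replicate number as a block, 35 were lower, beside 20.9% of all genes.

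**Figure D2:**
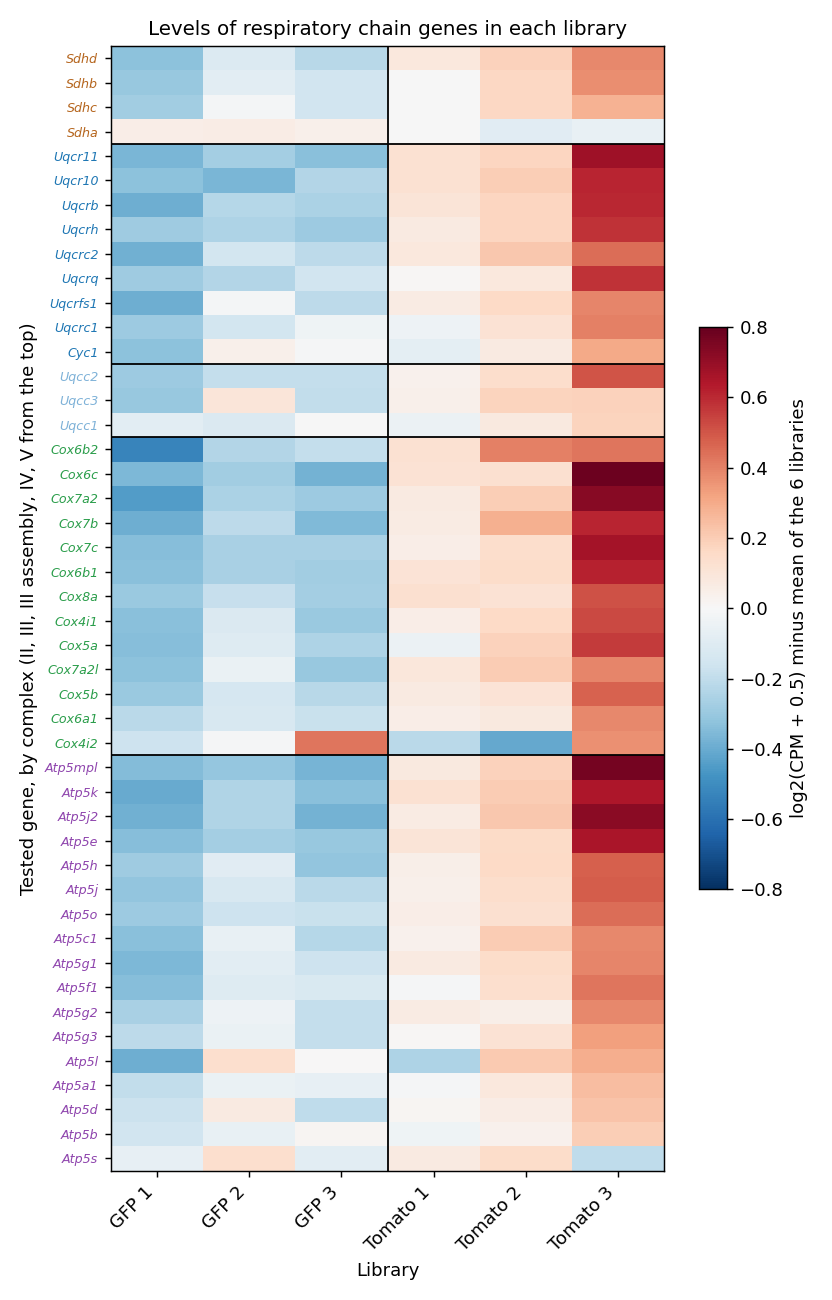
Level of each tested gene (rows, by complex) in each library (columns, GFP left of Tomato), as the log2 deviation from the gene's mean over the 6 libraries. GFP replicate 1 has the lowest level for 36 of the 46 genes and Tomato replicate 3 the highest for 43.

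In complex II, Sdhb and Sdhd were lower in GFP, while Sdha, the largest of its subunits, was not. Sdha (chr13:74322254-74350280), the flavoprotein that oxidises succinate, had 211, 212 and 209 CPM in GFP libraries, against 203, 191 and 195 CPM in Tomato libraries. The GFP libraries all lay above the Tomato libraries, by a margin that did not pass the test (log2 fold change 0.10 ± 0.08 (SE), adjusted p = 0.353 by edgeR). Sdhb (chr4:140961203-140979193), the iron-sulfur subunit, had 84.4, 98.3 and 93.6 CPM in GFP libraries, against 104, 117 and 135 CPM in Tomato libraries. Its GFP libraries all lay below, with a log2 fold change of -0.36 ± 0.11 (adjusted p = 0.0441, edgeR). Of the pair of membrane anchors, Sdhc (chr1:171127165-171150603) had 92.5, 111 and 101 CPM in GFP libraries, against 112, 126 and 136 CPM in Tomato libraries. Sdhd (chr9:50596357-50603812) had 103, 120 and 111 CPM in GFP libraries, against 137, 147 and 169 CPM in Tomato libraries. The fractions did not overlap for either anchor, and Sdhd passed the test (-0.44 ± 0.11, adjusted p = 0.0171, edgeR) while Sdhc did not (-0.29 ± 0.11, adjusted p = 0.069, and 0.0207 with the replicate block). The transcript lengths used were 2900 and 3171 bases for Sdha and Sdhc and 1142 and 1231 bases for Sdhb and Sdhd.

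In complex III, 7 of 9 genes were lower in GFP, beside 15.7% of all genes tested. The median log2 fold change of the 9 was -0.50. The smallest adjusted p-values belonged to a pair of small accessory subunits. Uqcr10 (chr11:4701973-4704342) had 35.5, 34.7 and 38.0 CPM in GFP libraries, against 48.7, 51.3 and 68.6 CPM in Tomato libraries. Uqcr11 (chr10:80402997-80406830), whose promoter is printed above, had 22.2, 23.7 and 22.7 CPM in GFP libraries, against 31.4, 32.5 and 46.4 CPM in Tomato libraries. The GFP libraries lay close together and the Tomato libraries were spread, with replicate 3 highest, and the log2 fold changes were -0.64 ± 0.14 for Uqcr10 (adjusted p = 0.0105, edgeR) and -0.68 ± 0.15 for Uqcr11 (adjusted p = 0.0127, edgeR). Uqcrb (-0.60), Uqcrh, which helps cytochrome c to bind (-0.57), and Uqcrq (-0.47) were also lower.

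Among the genes of the larger complex III subunits, 2 of 4 were lower. Uqcrfs1, the Rieske iron-sulfur protein that passes electrons on, was lower by a log2 fold change of -0.41 ± 0.12 (adjusted p = 0.0384, edgeR). The core protein gene Uqcrc2 was lower by -0.50 ± 0.11 (adjusted p = 0.0147, edgeR). However, Uqcrc2 shares exon bases with Pdzd9 on the other strand, and reads from those bases cannot be assigned to either gene. Cyc1, the haem subunit cytochrome c1, had 62.9, 81.3 and 78.8 CPM in GFP libraries, against 75.0, 83.3 and 97.8 CPM in Tomato libraries. These ranges overlapped, and its change did not pass the test (-0.20 ± 0.13, adjusted p = 0.28, edgeR). The other core protein gene, Uqcrc1, had 121, 134 and 145 CPM in GFP libraries, against 144, 161 and 196 CPM in Tomato libraries (-0.32 ± 0.13, adjusted p = 0.0868, and 0.0142 with the replicate block).

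The assembly factors Uqcc1, Uqcc2 and Uqcc3, which act on newly made cytochrome b, gave 1 call. Uqcc2 (chr17:27122663-27133916) had 23.9, 25.6 and 25.6 CPM in GFP libraries, against 30.0, 32.3 and 41.7 CPM in Tomato libraries, and was lower (-0.47 ± 0.13, adjusted p = 0.0292, edgeR). Uqcc1 averaged 25.4 ± 1.04 CPM in GFP libraries and 28.0 ± 2.24 CPM in Tomato libraries (SD, n = 3 each). Uqcc3 averaged 11.4 ± 1.72 CPM in GFP libraries and 13.7 ± 0.792 CPM in Tomato libraries. Both of these overlapped between the fractions and did not pass the test.

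In complex IV, cytochrome c oxidase, 12 of 13 genes tested were lower in GFP, with log2 fold changes from -0.73 to -0.35. Its transcripts were also the shortest as a group, with a median of 645 bases. The medians were 2065.5 bases in complex II, 963 in complex III and 838 in complex V. Over all genes tested 15.7% were lower. Among the 457 protein-coding genes tested with transcripts of at most 815 bases, 51.2% were lower. Cox7b (chrX:106015700-106022450), a small membrane subunit, had 41.6, 47.1 and 42.6 CPM in GFP libraries, against 57.2, 66.6 and 83.5 CPM in Tomato libraries. Its change of -0.66 ± 0.14 had the smallest adjusted p of the 46 genes (0.0103, edgeR). Cox6b1 (chr7:30616861-30626151), a subunit on the outer face that links the partners of the enzyme dimer, had 65.8, 69.4 and 68.5 CPM in GFP libraries, against 89.9, 92.0 and 128 CPM in Tomato libraries (-0.60 ± 0.14, adjusted p = 0.014, edgeR). For both genes every GFP library lay below every Tomato library, and Tomato replicate 3 was highest.

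Several subunits of complex IV have tissue isoforms, and the forms that most tissues use carried nearly all of the RNA. Cox4i1, the common form of the subunit that binds ATP, had 110, 128 and 113 CPM in GFP libraries, against 144, 155 and 200 CPM in Tomato libraries (-0.51 ± 0.13, adjusted p = 0.0234, edgeR). Its counterpart Cox4i2, known from lung and from low oxygen, had 0.673, 0.806 and 1.27 CPM in GFP libraries, against 0.63, 0.489 and 1.19 CPM in Tomato libraries. Cox4i2 was thus near 1 CPM in both fractions, overlapped between them, and its change of 0.25 ± 0.40 was not distinguishable from 0 (adjusted p = 0.658, edgeR). Per kilobase of transcript, the level of Cox4i1 was 155 CPM in GFP and 221 CPM in Tomato libraries, and that of Cox4i2 was 1.25 CPM in GFP and 1.06 CPM in Tomato libraries.

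Cox6a1 had 97.0, 103 and 99.6 CPM in GFP libraries, against 117, 119 and 147 CPM in Tomato libraries (-0.35 ± 0.11, adjusted p = 0.0373, edgeR), while its heart and muscle form Cox6a2 had raw counts of 3, 2 and 6, against 3, 4 and 11, and was not tested. Cox7a2 had 38.0, 43.7 and 42.4 CPM in GFP libraries, against 54.8, 59.7 and 86.5 CPM in Tomato libraries (-0.70 ± 0.17, adjusted p = 0.0175, edgeR). The related Cox7a2l was lower as well (-0.46 ± 0.12, adjusted p = 0.0215, edgeR). The heart and muscle form Cox7a1 had counts of 3, 1 and 6 in GFP libraries and 8, 12 and 20 in Tomato libraries, too few to be tested. Cox8a had 50.3, 54.5 and 51.3 CPM in GFP libraries, against 67.7, 67.0 and 88.4 CPM in Tomato libraries (-0.52 ± 0.12, adjusted p = 0.0156, edgeR). The heart and muscle form Cox8b had 1 read in GFP replicate 2 and none elsewhere, Cox8c had none, and Cox7b2 had 1 read in Tomato replicate 2 and none elsewhere.

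Cox6b2, a form known from testis, was the one tissue isoform that passed the test. It had 2.15, 2.75 and 2.85 CPM in GFP libraries, against 3.66, 4.56 and 4.64 CPM in Tomato libraries. No GFP library reached the lowest Tomato library, and the log2 fold change was -0.73 ± 0.19 (adjusted p = 0.0241, edgeR). The remaining complex IV genes that were lower were Cox5a (-0.49), Cox5b (-0.45), Cox6c (-0.72) and Cox7c (-0.61). For Cox7c, Cox5b and Cox6c, 53.0%, 25.9% and 21.1% of the 50-base stretches of their transcripts also occur in other annotated transcripts, so their counts are uncertain.

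In complex V, ATP synthase, 9 of 17 genes were lower in GFP, beside 15.7% of all genes tested. The largest changes were in small subunits of the membrane part and the stalk. Atp5k (chr5:108433244-108434448), subunit e, had 8.02, 9.04 and 8.46 CPM in GFP libraries, against 11.8, 12.5 and 17.2 CPM in Tomato libraries (-0.70 ± 0.16, adjusted p = 0.0144, edgeR). Atp5e (chr2:174461072-174464105), the epsilon subunit of the central stalk, had 33.4, 35.0 and 34.3 CPM in GFP libraries, against 45.5, 47.1 and 67.0 CPM in Tomato libraries (-0.63 ± 0.15, adjusted p = 0.0153, edgeR). Neither gene overlapped between the fractions. Atp5mpl, a small membrane protein of the enzyme (-0.73), and Atp5j2, subunit f (-0.70), were lower by similar amounts.

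Of the subunits that form the catalytic head, alpha and beta, neither gene was called. Atp5b, the catalytic beta subunit, had 685, 732 and 769 CPM in GFP libraries, against 744, 780 and 874 CPM in Tomato libraries, and the ranges overlapped (-0.13 ± 0.11, adjusted p = 0.378, edgeR). Atp5a1, the alpha subunit, had 435, 481 and 478 CPM in GFP libraries, against 496, 530 and 592 CPM in Tomato libraries, with no overlap but no call (-0.22 ± 0.11, adjusted p = 0.156, edgeR). Atp5b was the most abundant of the 46 genes also per kilobase, at 380 CPM in the GFP fraction, against 417 CPM in the Tomato fraction. In the stalks, the gamma subunit gene Atp5c1 was lower (-0.42 ± 0.12, adjusted p = 0.0294), while the delta subunit gene Atp5d was not called (-0.20 ± 0.11, adjusted p = 0.181). The side stalk genes Atp5h (-0.47), Atp5j (-0.46) and Atp5o (-0.44) were lower, and Atp5f1, subunit b, was not called (-0.38 ± 0.13, adjusted p = 0.0551, and 0.0104 with the replicate block). Atp5j shares exon bases with Gabpa, and Atp5f1 with Wdr77, on the other strand.

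The membrane ring of complex V is built of 1 protein, subunit c, which 3 genes encode. Atp5g1 (chr11:96068852-96075670) had 41.1, 49.7 and 47.1 CPM in GFP libraries, against 55.5, 58.4 and 69.5 CPM in Tomato libraries. Atp5g2 (chr15:102662864-102672352) had 7.0, 8.24 and 7.36 CPM in GFP libraries, against 8.89, 8.78 and 11.2 CPM in Tomato libraries. Atp5g3 (chr2:73908447-73911326) had 155, 173 and 157 CPM in GFP libraries, against 181, 195 and 226 CPM in Tomato libraries. None of the 3 overlapped between the fractions, Atp5g1 passed the test (-0.41 ± 0.12, adjusted p = 0.0308, edgeR), and Atp5g2 (-0.35 ± 0.14, adjusted p = 0.0974) and Atp5g3 (-0.32 ± 0.11, adjusted p = 0.0525, and 0.0262 with the replicate block) did not. The 3 log2 fold changes lay within 1 standard error of each other, so the spread gives no order. Atp5g3 held most of the RNA per kilobase in both fractions.

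Of the remaining genes, Atp5s averaged 10.6 ± 0.979 CPM in GFP libraries and 10.7 ± 1.39 CPM in Tomato libraries (SD, n = 3 each), a log2 fold change of -0.01. Atp5l, subunit g, averaged 1.1 ± 0.29 CPM in GFP libraries and 1.30 ± 0.342 CPM in Tomato libraries. That is far below the other subunits, and 68.5% of the 50-base stretches of its transcripts occur in other annotated transcripts, 12 of them pseudogenes. Of the 51 genes, 9 shared over 20% of their stretches in this way, and 6 of these were lower. They included Uqcrb (43.2%), Atp5h (50.5%), Atp5o (35.5%), Atp5g2 (46.4%) and Atp5f1 (23.2%). Exons of 13 of the 51 overlap those of another gene, mostly on the other strand, as do those of Cox4i1 with Emc8, Cox6c with Vps13b and Atp5a1 with Haus1. Among the 23 tested genes that shared none, 13 were lower, with a median log2 fold change of -0.41.

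Summed over its tested genes, each complex was lower in every GFP library than in any Tomato library. Complex IV differed most, with 570.9, 632.4 and 591.7 CPM in GFP libraries, against 753.7, 796.2 and 1061 CPM in Tomato libraries (log2 ratio of means -0.54). Complex III had 497.1, 564.7 and 564.3 CPM in GFP libraries, against 642.7, 695.2 and 877.4 CPM in Tomato libraries (-0.45). Complex V, which its alpha and beta subunits dominate, had 2026, 2256 and 2202 CPM in GFP libraries, against 2376, 2537 and 2959 CPM in Tomato libraries (-0.28). Complex II had 491.1, 542.0 and 514.6 CPM in GFP libraries, against 555.1, 581.4 and 635.3 CPM in Tomato libraries (-0.20). A sum is set by its most abundant genes, and the differences between complexes were not tested. The order of the 4 sums is also the order of the medians of transcript length at its ends, with complex IV the shortest and complex II the longest.

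**Figure D3:**
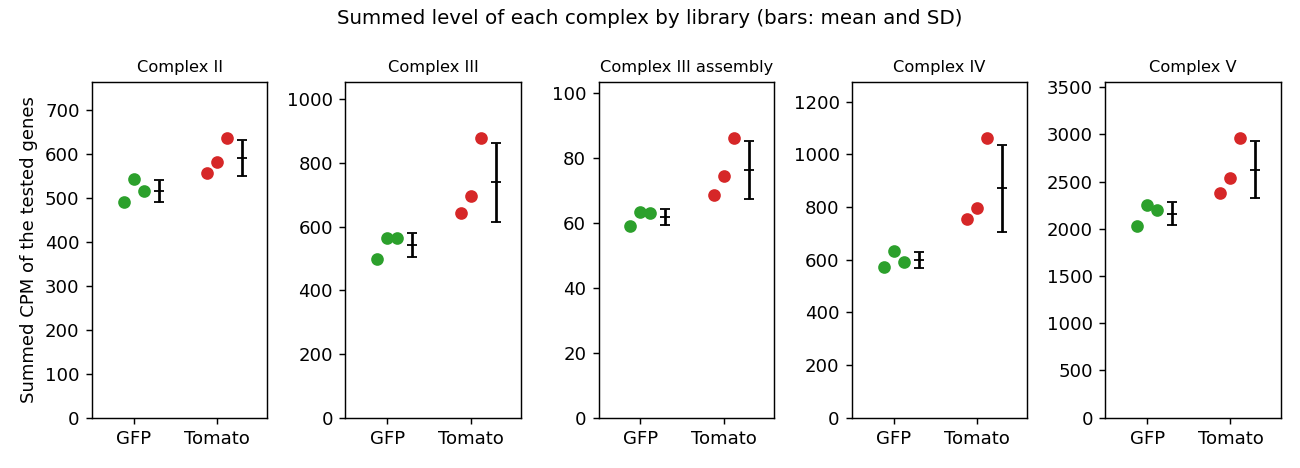
Summed CPM of the tested genes of each complex (y axis from 0, own scale per panel) in each library, GFP left of Tomato, with the mean and SD of each fraction as bars. In every panel the 3 GFP points lie below the 3 Tomato points, and Tomato replicate 3 is highest.

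Transcript length, taken as the median over the best supported principal transcripts, followed the size of the change among these genes. Over the 46 genes the log2 fold change correlated with log2 length (Pearson r = 0.558, Spearman rho = 0.642 across genes, which share libraries and are not independent), and over 15583 genes with a length the values were r = 0.193 and rho = 0.35. The shortest of the 10 length classes, up to 1050 bases, held 30 of the 46. In that class 29.8% of all genes were lower and 3.21% higher in GFP, with a median of -0.33, and 24 of the 30 were lower, with a median of -0.51. In the next class, up to 1532 bases, 25.8% of all genes were lower, as were 5 of 6. In the longest class the direction was the opposite, with 7.06% lower and 36.6% higher.

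The 36 genes in the shortest 2 classes included 29 of the 31 called lower, and the 10 longer genes included the other 2, Uqcrc2 and Atp5g1. Within its own length class, the fold change was below the median of all genes for 38 of the 46, by a median of -0.19. The classes are wide, however, and most of these genes lie at the short, protein-coding end of theirs. Among the 457 protein-coding genes tested with transcripts of at most 815 bases, 51.2% were lower and the median was -0.48, while 19 of the 23 respiratory chain genes of that length were lower, with a median of -0.57.

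**Figure D4:**
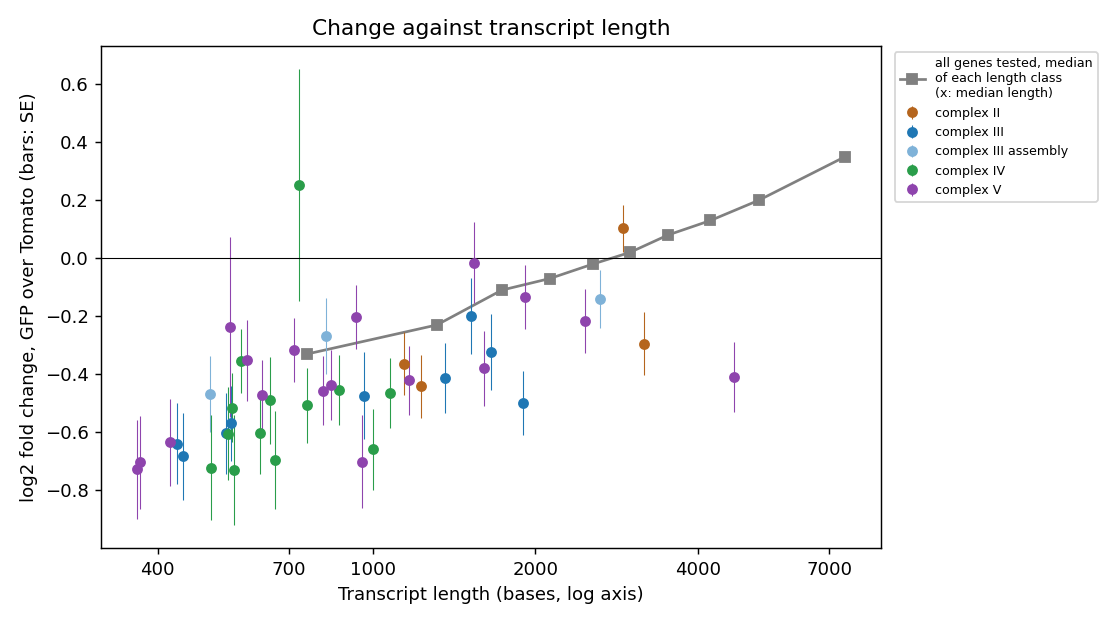
Log2 fold change, GFP over Tomato (y axis, bars are SE), against transcript length in bases (log x axis) for the 46 genes, coloured by complex, with the median of all genes in each of the 10 length classes as a grey line. The shortest genes lie lowest, the grey line climbs from -0.33 to 0.35, and Sdha at 2900 bases and Cox4i2 at 730 bases lie above 0.

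The comparison was repeated with offsets that take out, in each library, a smooth trend of level with length and GC content. The trend was fitted on genes with a mean log2 CPM above 0 and applied to all genes with a known length. Then 2 of the 46 genes were lower and 0 higher (8 lower and 2 higher without adjustment), while over all genes 10.5% were lower and 14.7% higher. The median of the 46 was -0.07, against 0.09 over all genes, and 22 of the 46 lay within 0.1 of 0, where 1 had before. The median deviations of the libraries became -0.03, -0.04 and -0.03 in GFP, against -0.03, 0.00 and 0.15 in Tomato, so that Tomato replicate 3 alone still stood above the others. Such offsets remove a difference of any origin that follows length, and what share of it came from the cells was not tested.

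Under the correction the median log2 fold change of every complex moved toward 0. As counted the medians were -0.33 for complex II, -0.50 for complex III, -0.52 for complex IV and -0.41 for complex V. With the correction they were -0.04 for complex II, -0.09 for complex III, -0.15 for complex IV and -0.03 for complex V. Complex IV stayed lowest, and the differences between complexes were not tested. Complex IV lost all 12 calls. The summed level of complex II had a log2 ratio of 0.00083, where the median log2 fold change over all genes was 0.09. In the shortest length class the corrected median of the 30 respiratory chain genes was -0.09, against 0.07 over all genes. In the next class the corrected median was -0.04 for 6 respiratory chain genes, against 0.10 over all genes. The genes that were still lower were Uqcr11 (-0.33 ± 0.09, adjusted p = 0.0353, edgeR) and Atp5g1 (-0.48 ± 0.14, adjusted p = 0.046, edgeR). With a correction for length alone, 2 genes were lower as well, but these were Atp5g1 (adjusted p = 0.0342, edgeR) and Uqcrc2 (-0.28 ± 0.09, adjusted p = 0.0466, edgeR), while Uqcr11 was not called (-0.26 ± 0.09, adjusted p = 0.0665). The length of Atp5g1 is in doubt: it was taken as 4660 bases, though shorter coding transcripts of this gene are annotated. Uqcr10 and Cox7b, which kept their calls without each library in turn, had -0.22 ± 0.09 (adjusted p = 0.099) and -0.17 ± 0.08 (adjusted p = 0.171).

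The correction depended on how the libraries and lengths were handled. With the replicate number as a block in addition, 5 genes were lower, namely Uqcr10, Uqcr11, Sdhc, Cox7a2 and Atp5g1, and 2 were higher, namely Sdha (0.19, adjusted p = 0.0472, edgeR) and Atp5s (0.36, adjusted p = 0.0429, edgeR). Over all genes that fit called 14.1% lower and 22.9% higher. With the median length of all coding transcripts instead, chosen after the data were seen, 10 genes were lower and 1 higher, with a median of -0.20, beside 11.2% lower and 15.8% higher over all genes.

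**Figure D5:**
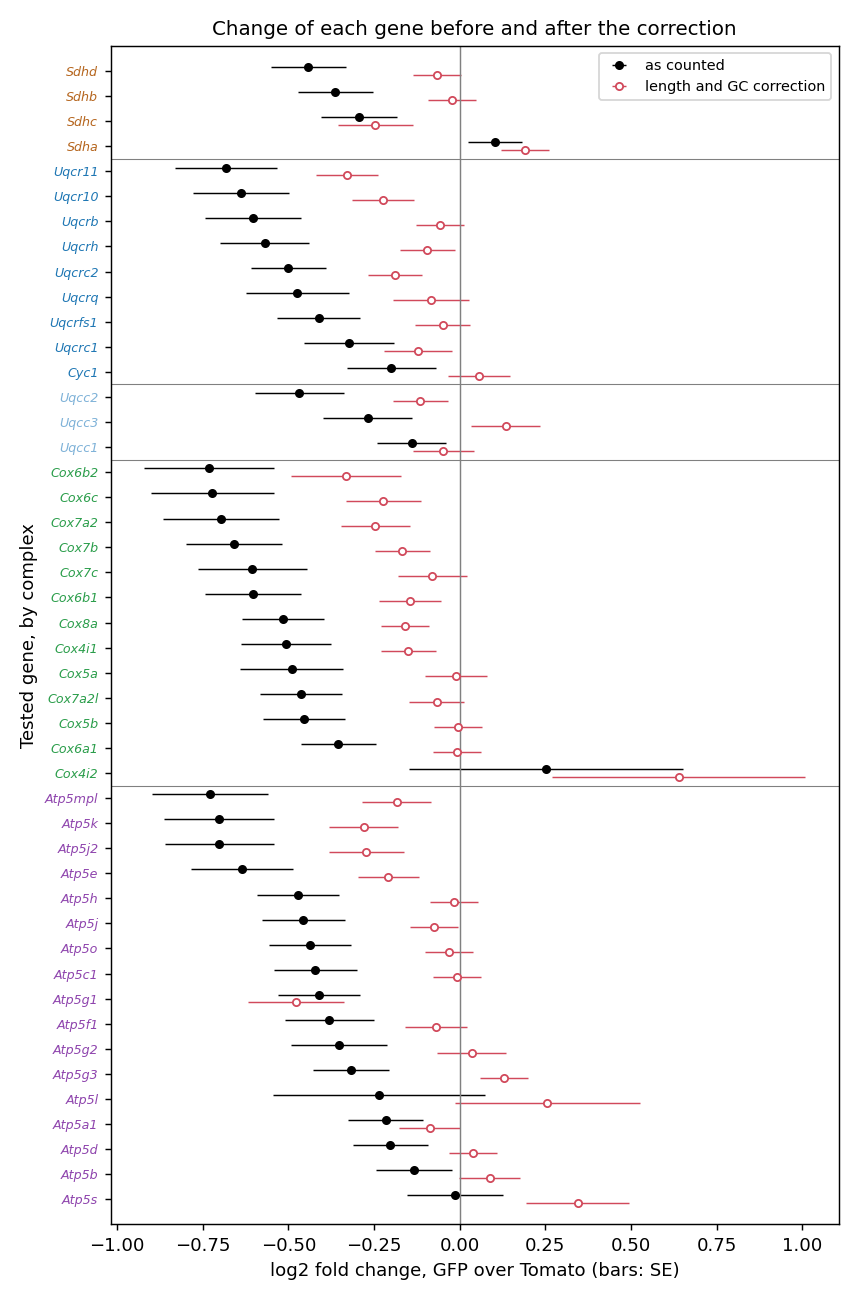
Log2 fold change, GFP over Tomato (x axis, bars are SE), of the 46 tested genes (rows, by complex) as counted (black) and with the length and GC correction (open red). Nearly all black points lie left of 0, with a median of -0.46. The red points have a median of -0.07, against 0.09 over all genes with the correction.

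Other nuclear genes of the same pathway and other genes with short transcripts were described in the same fit, in lists chosen by name. Among 46 genes with the prefix Nduf, mainly for complex I, the NADH dehydrogenase, and its assembly factors, 28 were lower and none was higher. Their median was -0.44, and with the correction 1 was lower and the median was -0.07. Of 85 cytosolic ribosomal protein genes, 74 were lower, with a median of -0.53, which became 6 lower, 1 higher and -0.13. Of 77 mitochondrial ribosomal protein genes, 35 were lower (-0.36, then 8 lower, 3 higher and -0.08), and of 14 proteasome core genes 10 were lower (-0.40, then 0 lower and -0.03). The medians of the ribosomal and proteasome lists thus lay on both sides of the -0.46 of the 46 respiratory chain genes.

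Lists with longer transcripts gave fewer calls, where over all genes 15.7% were lower and 13.1% higher. Of 17 tricarboxylic acid cycle genes, 2 were lower, Fh1 and Idh2, and 1 was higher, Ogdh, with a median of -0.18 and of 0.08 with the correction. Of 19 genes for cytochrome c and the assembly of complex IV, 6 were lower, and of 12 genes for the assembly of complexes II, III and V, 4 were, among them Atpif1 (-0.65), the inhibitor of ATP synthase, and Fmc1 (-0.67). With the correction, the list for cytochrome c and complex IV assembly had 2 lower and 1 higher, and the list for complexes II, III and V had 0 lower (Atpif1 adjusted p = 0.103, Fmc1 adjusted p = 0.126, edgeR). Of 20 genes for carriers and protein import, 6 were lower, and with the correction 1 was lower and 1 higher. The assembly and carrier lists had median transcript lengths of 1688.5 to 2071.5 bases, in length classes where 16.8% to 18.7% of all genes were lower. Of 16 regulators of mitochondrial gene expression, 3 were higher and none was lower, with a median of 0.06, and Hif1a was among the 3 (0.39, adjusted p = 0.0305, edgeR). With the correction Hif1a alone of the 16 was higher (0.35, adjusted p = 0.023, edgeR).

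The mitochondrial genome encodes the partners of these subunits. Of its 13 respiratory chain genes, 7 were tested and 4 were listed at 0 in every library (mt-Atp8, mt-Co2, mt-Co3 and mt-Nd4l), so this list is incomplete. Mt-Co1, the catalytic subunit of complex IV, was lower (-0.75, adjusted p = 0.0172, edgeR) and mt-Nd1 of complex I was lower (-0.46, adjusted p = 0.0473, edgeR). The median of the 7 was 0.26 and became 0.60 with the correction, where 4 were higher and none was lower. Over all genes 14.7% were higher and 10.5% lower with the correction. Why 4 genes stood at 0 was not tested, and the counts of the 7 tested genes may be affected as well.

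Markers of other cells moved with the fractions. All 8 macrophage markers were lower in GFP, with a summed level of 111 to 183 CPM in GFP libraries and of 829, 1370 and 2030 CPM in Tomato replicates 1, 2 and 3. The 7 mesothelial markers together had 28.0 to 80.6 CPM in GFP and 1070 to 1350 CPM in Tomato libraries. The 4 epithelial and cancer cell markers had 36.5 to 44.0 CPM in GFP and 303 to 356 CPM in Tomato libraries. Most of that Tomato sum was Krt8 and Krt18 (means 171 and 133 CPM), against 12.3 CPM for Epcam and 11.9 CPM for Cdh1. Which cells made these keratins was not tested, and other keratins, Krt19 and Krt14, are in the mesothelial list. The 7 endothelial markers had 215 to 340 CPM in GFP and 22.7 to 58.4 CPM in Tomato libraries. Tomato replicate 3, the library with the highest respiratory chain levels, also had the most macrophage marker RNA. It was highest as well for the epithelial and cancer cell markers (356 CPM) and the cytosolic ribosomal protein genes (10100 CPM). Among Tomato libraries it was lowest for fibroblast (30000 CPM), mesothelial (1070 CPM) and endothelial (22.7 CPM) markers. The part of these cells in the result was not tested. Muscle markers (1.21 to 1.94 CPM in GFP, 0.863 to 0.927 CPM in Tomato libraries) and brown fat markers (0.179 to 0.507 CPM in GFP, 0.187 to 0.353 CPM in Tomato libraries) were near 0, as were the heart and muscle isoforms of complex IV.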

How the data were processed

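RNA was sequenced from 6 libraries, 3 GFP and 3 Tomato, made from 150 ng of total RNA with a TruSeq kit, per the labels' protocols. Each deposited table holds 1 library's raw counts of reads by gene, over both strands and for each strand, per the file headers. The submitters' processing notes name Trim Galore 0.4.3, STAR 2.5.2b and GRCm38. The read length and the annotation release of the counting are not given in the sources used here. Counts over both strands were used, since those of either strand were nearly equal (ratio 1.002 to 1.006). Of 49671 genes, 49412 matched GENCODE M21, and the other 259 held 0.00762% of counts.

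The fractions were compared with edgeR 4.0.16 (R 4.3.3): TMM scaling, filterByExpr, robust quasi-likelihood F test, two-sided, no block, Benjamini-Hochberg adjustment over 15608 genes. CPM are TMM-scaled, and folds are GFP over Tomato. A library's deviation is its log2 (CPM + 0.5) minus the mean of the 6. The correction used splines with 4 degrees of freedom for length and for GC content. The fits were run on simulated counts, without and with a length trend that was the same in all GFP libraries. The trends of the real libraries differed, so these runs do not test the correction as used here. GFP and Tomato libraries with the same number shared deviations from their fraction's mean (correlations 0.403, 0.108 and 0.347, against -0.392 to 0.0281 for unequal numbers). Deviations within a fraction cancel out, so positive values for equal numbers bring negative ones for unequal numbers. The values for equal numbers passed the limit of 0.1, which does not establish pairs, and no label names pairs. The fit with the block therefore stands beside the unpaired fit as an alternative. P-values measure the spread between these libraries, which may be technical. Promoters came from RefSeq tables.

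The genes and lists were chosen with earlier results of these data known. Values per library are given for the complex II genes, for the 2 genes with the smallest adjusted p in complexes III, IV and V and for genes with isoforms. Further names were chosen with the values known. Rps6k kinase genes were taken out of the ribosomal list. Alternatives were other scalings and filters, DESeq2 1.42.0, limma-voom 3.58.1, the block, the correction by length alone, 1 strand column, protein-coding genes, a threshold of 0.01 and leaving out each library.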

Additional observations from a re-analysis of the deposited data

How the results depend on the processing

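The 46 genes gave 31 lower and 0 higher, and the count stayed within 1.5 times under upper quartile, relative log expression and library size scaling, other filters, 1 strand column, protein-coding genes alone, DESeq2, limma-voom and the block. A threshold of 0.01 left 0 of these genes, in any complex, with 578 higher and 1083 lower over all genes. Library size scaling, which moved the median of all genes to -0.16, gave a median of -0.63 for these genes, 2 lower among the complex III assembly factors, 14 lower in complex V, and 1128 higher and 3851 lower over all genes. The block raised all genes called higher to 3137, and among the 46 genes it changed no other call than those given beside Sdhc, Uqcrc1, Atp5f1 and Atp5g3.

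Under the length and GC correction, 2 genes were lower (complex II 0, complex III 1, assembly factors 0, complex IV 0, complex V 1), the median was -0.07, and the log2 ratio of the summed complex II level turned to 0.00083. With the block as well, 5 were lower (1, 2, 0, 1 and 1 in that order) and 2 higher (1 in complex II, 1 in complex V), with a median of -0.07 and 3567 higher over all genes. Length alone gave 2 lower (0, 1, 0, 0 and 1), Uqcrc2 in place of Uqcr11 in complex III, with a median of -0.09. The alternative length gave 10 lower (0, 2, 0, 4 and 4) and 1 higher, in complex II, with a median of -0.20.

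Leaving out 1 library gave 2 to 36 lower, with 0 to 3 in complex II, 1 to 8 in complex III, 0 to 1 among assembly factors, 1 to 13 in complex IV and 0 to 11 in complex V. Medians ran from -0.54 to -0.32, and all genes gave 833 to 2392 higher and 1380 to 2793 lower. Genes near 1 CPM, Cox4i2 and Atp5l, are limited by depth.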
